A study of Danio rerio with 18 samples.

Results

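The collagen chain genes of the zebrafish larva are described here, that is, every gene whose name is col, a type number, the letter a, a chain number and at most a copy letter. The rule, which uses names and a minimum of 50 counts summed over all libraries, kept 54 of 31624 genes. COL10A1 (ENSDARG00000101535) with 9 counts and col21a1 with 40 fell below that minimum, and the members nearest above it were col19a1 (ENSDARG00000096073) with 51, col5a3a with 52 and col28a1b with 60. By structural class, 15 members are fibrillar chains, 11 are fibril-associated chains with interrupted helices (FACIT), 6 form the basement membrane network of type IV, 4 belong to the beaded filaments of type VI, 4 to the short-chain networks of types VIII and X and 4 to the transmembrane types XVII and XXIII. Another 3 belong to the anchoring fibrils of type VII, 3 to the multiplexins XV and XVIII and 4 to type XXVIII. The larvae were of the AB strain and were sampled whole, unfed, after the first-feeding stage, in 18 libraries made from pools of 5 larvae. Incubation and challenge temperature define 3 groups, 24 x 24, 24 x 32 and 32 x 24 °C, each with 3 libraries of control larvae, held in water with phosphate-buffered saline, and 3 of larvae immersed for 24 h in water with lipopolysaccharide (LPS) of Pseudomonas aeruginosa. LPS, a glycolipid of the bacterial cell envelope, is a strong trigger of innate immunity, and its dose stands as 10 mg/L in the sample labels, which the study's methods give for the stock, and as 10 µg/L in those methods. Larvae of the 32 x 24 °C group were younger in hours at sampling than the others and were cooled from 32 to 24 °C before the challenge. Incubation temperature, age and that cooling thus cannot be told apart, and the LPS libraries come from the larvae that survived. The study repeated the experiment 3 times with different broodstock, but the labels do not tie libraries to repeats, so p-values measure the spread between these pools.

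Collagens are secreted proteins in which 3 chains wind into a triple helix. Fibrillar types I, V, II and XI assemble into the fibrils that carry load in skin, bone and tendon (I and V) or in cartilage and the sheath of the notochord (II and XI), and FACIT chains such as those of types IX, XII and XIV decorate the fibril surface. The network of type IV, the anchoring fibrils of type VII and the transmembrane type XVII hold epithelia to the tissue under them. In a first-feeding larva much of this matrix is still being laid down in the skin, the fin folds and the pharyngeal cartilages. The names follow the gene table used here, which spells some zebrafish genes in capitals. COL1A1 (ENSDARG00000035809) and col1a1a (ENSDARG00000012405) are therefore separate genes, and where a collagen symbol is shared, the identifier is given for a gene named singly. How the counting treated reads shared by close copies is not given, so values of near-identical copies are uncertain.

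Libraries held 1868228 to 8261920 counts, with 5075072 to 8261920 in the 24 x 24 °C controls and at most 3257523 in the libraries of the other temperature groups. Except in LPS replicate 3 of 24 x 24 °C (2088918 counts), low-count members were thus measured with more counts at 24 x 24 °C. Every marker of epidermis, fin fold, cartilage and muscle had counts in every library, and of the notochord markers loxl5b was at 0 in 1, whereas the osteoblast marker bglap was at 0 in 17 of 18. Control replicate 1 at 32 x 24 °C stood apart from the other controls of its group for col10a1a and for the actinodins, which build the actinotrichia, the fibres of the fin fold. LPS replicate 2 at 24 x 32 °C was the highest of all 18 libraries for col24a1, the integrin gene ITGB1 (ENSDARG00000071863) and the laminin gene lama2. CPM, the usual depth-scaled unit, is the count of a gene relative to the library total, with totals scaled by the trimmed mean of M-values (TMM). CPM values are not divided by transcript length, so they compare libraries and not genes. A member was called, that is, up- or down-regulated, at a Benjamini-Hochberg adjusted p under 0.05 over all 15722 genes tested and a fold change of at least 1.5, by edgeR's quasi-likelihood test on all 18 libraries. Of the 54 members, 48 passed the filter on low counts and were tested.

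The mean share of all counts that fell on the collagen genes was lower in LPS-challenged than in control larvae at each temperature combination, and without overlap of libraries at 24 x 24 and 24 x 32 °C. At 24 x 24 °C the share was 1.20, 1.16 and 1.20% in the controls and 0.971, 0.915 and 0.765% with LPS. At 24 x 32 °C the 3 control libraries held 0.951, 0.919 and 0.915% and the LPS libraries 0.612, 0.768 and 0.537%. At 32 x 24 °C the controls held 1.26, 1.55 and 1.47% and the LPS libraries 1.24, 1.22 and 1.27%, and here they overlapped, with LPS replicate 3 above control replicate 1. Between libraries of the same number, a pairing assumed in this group and not given by the labels, the LPS share was the lower in each of 3 pairs. The summed collagen level with LPS was 0.752 of the control level at 24 x 24 °C, 0.663 at 24 x 32 °C and 0.886 at 32 x 24 °C. Fibrillar chains carried most of this sum, and their summed level was 0.712, 0.621 and 0.872 of the control level in the same order.

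**Figure D1:**
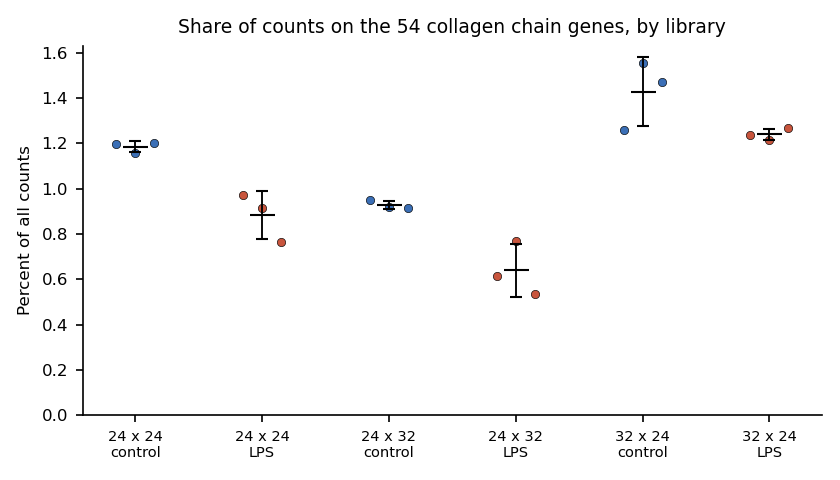
Percent of all counts that fell on the 54 collagen chain genes (vertical axis) in each of 18 libraries, by incubation and challenge temperature and treatment, with control libraries in blue, LPS libraries in red and bars at the mean ± SD of 3 libraries. With LPS the share was lower at 24 x 24 °C (0.765 to 0.971%) and 24 x 32 °C (0.537 to 0.768%) than in every control library of the same combination.

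Across the members, LPS effects leaned to lower expression. The median log2 fold change of the 48 tested members was -0.26 at 24 x 24 °C, -0.29 at 24 x 32 °C and -0.18 at 32 x 24 °C, whereas the median over all genes lay within 0.0017 of 0 in each. Negative values were found in 39, 34 and 39 members. Of the 48 members, 27 (56.2%) were negative in all 3 comparisons, against 16.4% of all genes tested, and only col8a1a was positive in all 3. Every LPS library lay below every control library in 26 members at 24 x 24 °C (9.62% of all genes), in 16 at 24 x 32 °C (10.2%) and in 4 at 32 x 24 °C (4.1%). The reverse held for 4, 0 and 0 members (9.22, 9.8 and 4.4% of all genes). The calls were fewer, with 1 member down-regulated at 24 x 24 °C (background 0.191% of genes called lower), 9 at 24 x 32 °C (0.592%) and none at 32 x 24 °C. At 32 x 24 °C 0.0318% of all genes were called in either direction, 5 members had an unadjusted p under 0.05 and DESeq2 also called no member. No member was up-regulated by LPS in this fit. With the LPS effect averaged over the 3 combinations, 6 members were down-regulated (0.814%) and 14 had an adjusted p under 0.05, all with lower values. Counts of genes at an unadjusted p, at an adjusted p without the fold limit, or called in other fits are given without the share of all genes throughout. They are not read as an excess. In either direction, 0.426% of all genes were called at 24 x 24 °C, 1.95% at 24 x 32 °C and 2.51% on average. Of these, the genes called higher made up 0.235, 1.36 and 1.7% of all genes, and at 32 x 24 °C 0.0191% were called higher and 0.0127% lower.

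**Figure D2:**
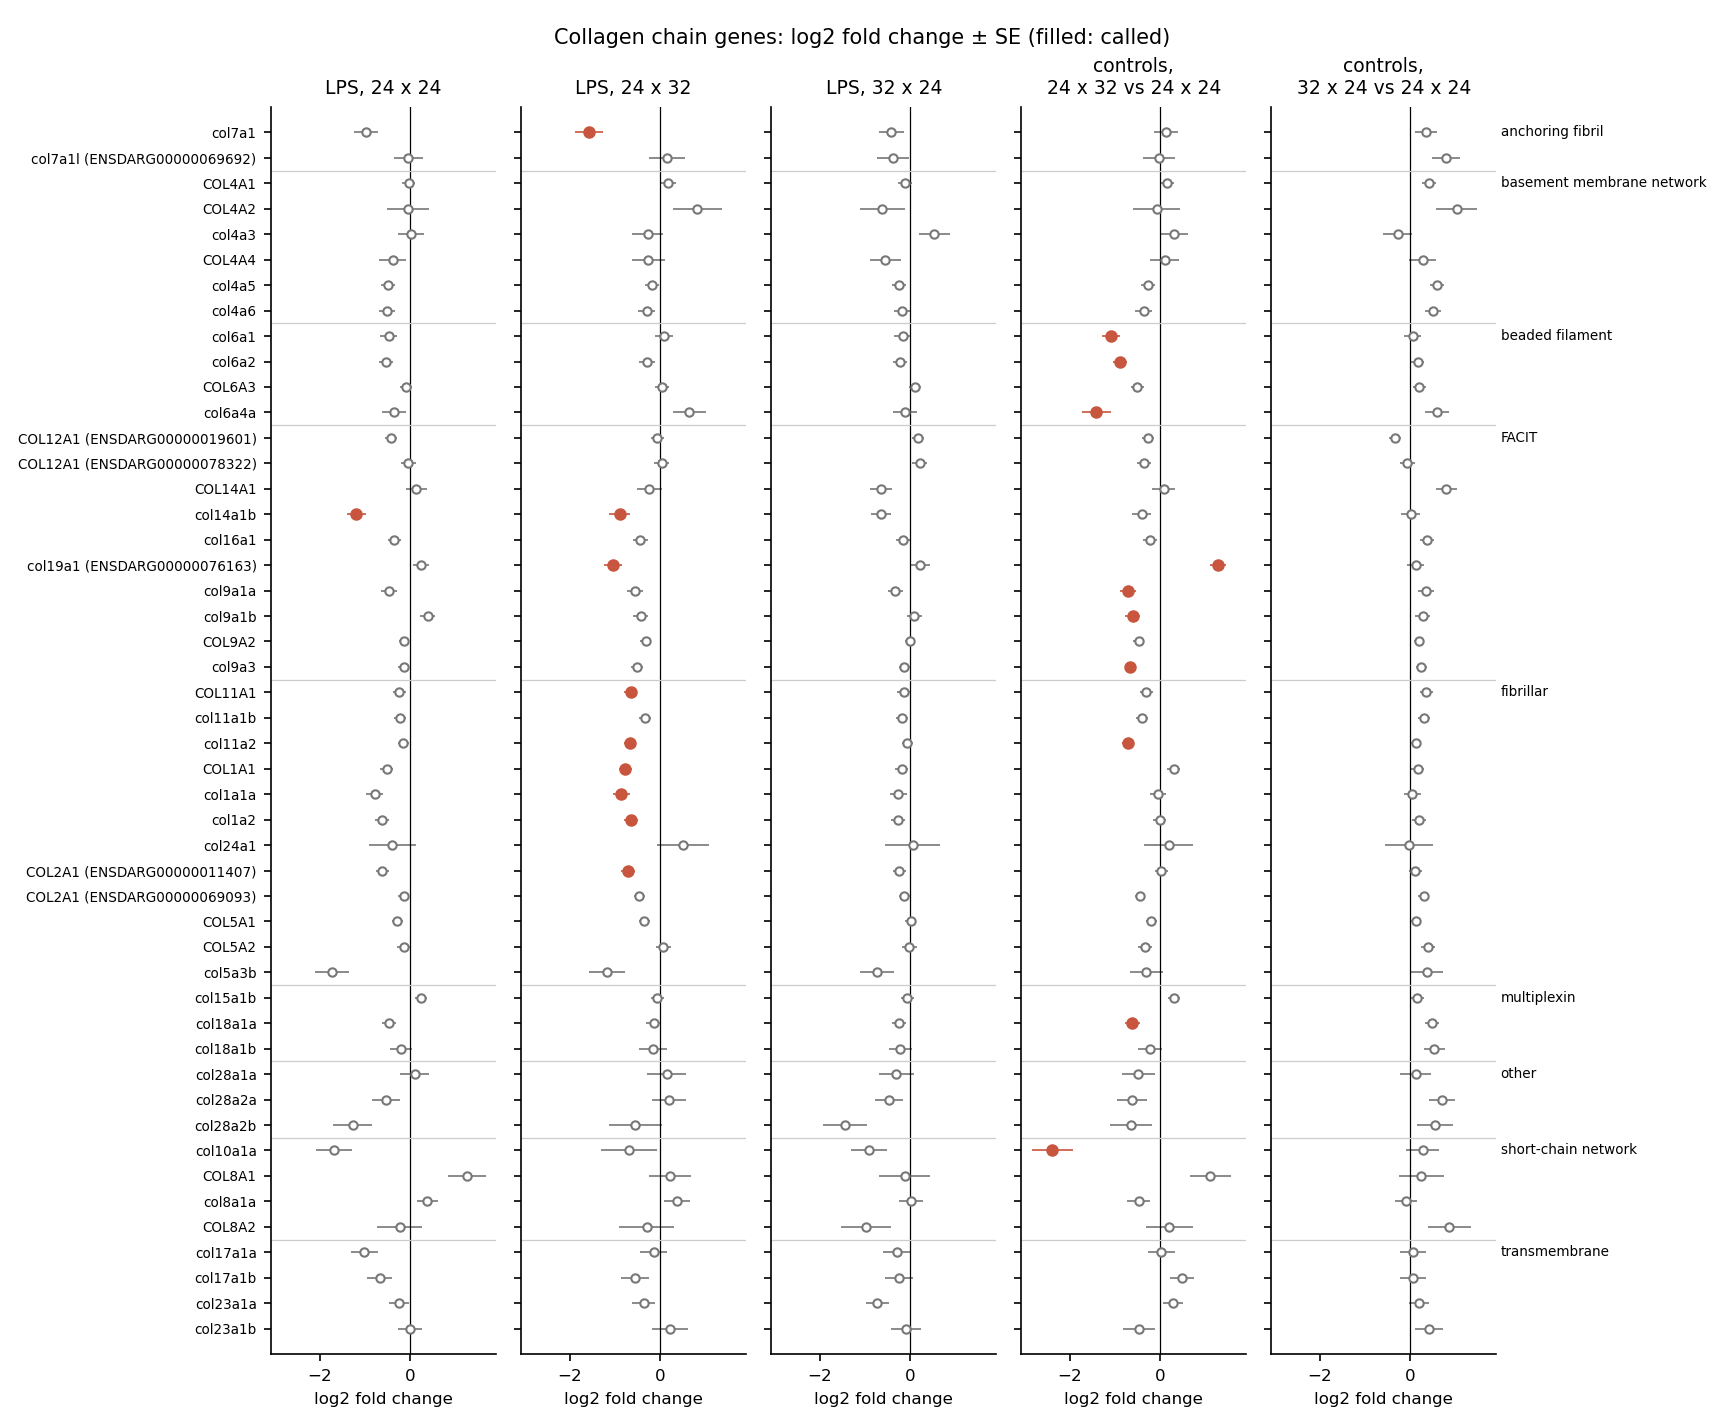
Log2 fold change ± SE (horizontal axis) of the 48 tested collagen chain genes (rows, grouped by structural class) in 5 comparisons, with called genes filled in red. Called members lie left of 0 with LPS, 9 of them at 24 x 32 °C, and between the controls of 24 x 32 and 24 x 24 °C 9 lie left and col19a1 (ENSDARG00000076163) right of 0.

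Type I collagen, the main fibril-forming collagen of skin, bone and tendon, had lower values with LPS for all 3 of its chain genes. The chain gene col1a1a had 2437, 2283 and 2410.1 CPM in the 24 x 24 °C controls and 1609.7, 1265 and 1269.8 CPM with LPS. Its libraries at 24 x 32 °C gave 2486, 2189.9 and 2234 CPM in the controls and 1091, 1724 and 989 CPM with LPS. All LPS libraries lay below all controls at both combinations, and LPS replicate 2 at 24 x 32 °C was the highest of its group. At 32 x 24 °C the values overlapped, with 1868, 2775 and 2730.4 CPM in the controls and 2175, 1707 and 2275 CPM with LPS. Expression of col1a1a fell at 24 x 32 °C (log2 fold change -0.86, SE 0.18, edgeR adjusted p = 0.0198) and on average (log2 fold change -0.63, SE 0.11, edgeR adjusted p = 0.00139). Its log2 fold change at 24 x 24 °C was -0.78, which did not pass the test (edgeR adjusted p = 0.0752). The other gene named for an alpha 1 chain, COL1A1, fell at 24 x 32 °C from 1922, 1796 and 1816 to 917, 1416 and 906 CPM (log2 fold change -0.77, SE 0.15, edgeR adjusted p = 0.00847). The alpha 2 chain gene col1a2 (ENSDARG00000020007) fell there from 1222, 1154 and 1251 to 731, 982 and 599 CPM (log2 fold change -0.64, SE 0.15, edgeR adjusted p = 0.0254). Between the 24 x 24 °C groups, COL1A1 went from 1539, 1455 and 1488 CPM in the controls to 1137, 1052 and 931 CPM with LPS, and col1a2 from 1241, 1204 and 1211 to 876, 789 and 701 CPM. Neither passed the test there, with log2 fold changes of -0.52 and -0.63 (edgeR adjusted p = 0.148 and 0.0703), although their groups did not overlap. COL1A1 kept its call at 24 x 32 °C whichever library was left out, whereas col1a1a and col1a2 each lost it in 5 of 6 such fits, with adjusted p up to 0.0665 and 0.0794, and kept it only without LPS replicate 2. Both also lost it in the fit of only the 6 libraries compared, where 6 of the 9 members stayed called.

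Among the other fibrillar chains, col5a3b (ENSDARG00000101816), a type V chain, had the largest of the average falls with LPS. Type V collagen copolymerises with type I and sets the diameter of its fibrils. At 24 x 24 °C col5a3b had 186, 146 and 158 CPM in the controls and 71.3, 44.5 and 27 CPM with LPS. At 24 x 32 °C the values were 108, 161 and 128 CPM and 45, 86.5 and 41.2 CPM. The groups did not overlap at either combination, but they did at 32 x 24 °C, with 127, 256 and 248 CPM in the controls and 144, 78.3 and 157 CPM with LPS. Its average LPS effect passed the test (log2 fold change -1.21, SE 0.22, edgeR adjusted p = 0.00565) and did so whichever library was left out, while within combinations the adjusted p was 0.0757, 0.138 and 0.943. The other type V chains changed less, with log2 fold changes at 24 x 24 and 24 x 32 °C of -0.29 and -0.36 for COL5A1 and -0.14 and 0.07 for COL5A2, none of them called. Copy col5a3a, with 0 to 7 counts in a library, was too low to test.

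Of the 5 cartilage fibril chains of types II and XI, 3 were called lower with LPS at 24 x 32 °C (0.592% of all genes). COL2A1 (ENSDARG00000011407), an alpha 1 chain of type II, had 361, 379 and 404 CPM in the 24 x 32 °C controls and 272, 246 and 180.1 CPM with LPS, and it fell (log2 fold change -0.71, SE 0.15, edgeR adjusted p = 0.0134). Its values at 24 x 24 °C of 392, 335 and 398 CPM in the controls and 284, 232 and 217 CPM with LPS did not overlap either (log2 fold change -0.61, edgeR adjusted p = 0.0703). The other type II gene, COL2A1 (ENSDARG00000069093), had 996, 1113 and 1236 CPM in controls and 925, 809.7 and 683 CPM with LPS at 24 x 32 °C, an adjusted p of 0.0465 and a log2 fold change of -0.46, which is under the 1.5-fold limit. Type XI chains, which nucleate the type II fibril, fell at 24 x 32 °C for col11a2 (ENSDARG00000012422; log2 fold change -0.67, SE 0.13, edgeR adjusted p = 0.0082) and COL11A1 (ENSDARG00000026165; log2 fold change -0.65, SE 0.14, edgeR adjusted p = 0.0211). The level of col11a2 was 161, 182 and 171 CPM in these controls and 126, 106 and 89.4 CPM with LPS, and that of COL11A1 354, 473 and 483 and 301, 321 and 212 CPM. The same genes had 24 x 24 °C log2 fold changes of -0.15 and -0.24. The copy col11a1b had -0.33 at 24 x 32 °C and was not called. In all, 12 of 12 tested fibrillar chains had negative LPS effects at 24 x 24 °C, 10 of them without overlap, and 10 of 12 at 24 x 32 °C, 6 of them called. Of all genes, 50.1% were negative at 24 x 24 °C and 49.8% at 24 x 32 °C. Below all controls at 24 x 24 °C lay 9.62% of genes, and 0.592% were called lower at 24 x 32 °C. The call of COL2A1 (ENSDARG00000011407) and that of COL11A1 were each lost without control replicate 2, control replicate 3 or LPS replicate 3 of 24 x 32 °C, and that of col11a2 without LPS replicate 3, where its fold change fell short of 1.5. No tested chondrocyte marker was called in any LPS comparison. At 24 x 32 °C acana, UCMA and MATN1 had log2 fold changes of -0.79, -0.42 and -0.23. Those of snorc and the SOX9 genes ENSDARG00000003293 and ENSDARG00000043923 were 0.22, 0.47 and 0.66. On average SOX9 (ENSDARG00000043923) had 0.43 (edgeR adjusted p = 0.0153), under the 1.5-fold limit. The part of chondrocytes in the LPS values was not tested.

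The FACIT gene col14a1b (ENSDARG00000076623) was the single member called at 24 x 24 °C in the edgeR fit of all 18 libraries. The study, with DESeq2, listed col14a1b, col10a1a, col5a3b, col17a1a, col7a1, col1a1a and col1a2 as down-regulated there. Type XIV collagen binds to type I fibrils in dense connective tissue and, in zebrafish, lies under the larval epidermis. In these larvae col14a1b was 85.8, 86.3 and 86.9 CPM in the controls and 47.1, 37.4 and 25.5 CPM with LPS (log2 fold change -1.19, SE 0.21, edgeR adjusted p = 0.0101). It also fell at 24 x 32 °C, from 62.3, 69.4 and 62.9 to 31.7, 39.8 and 32.4 CPM (log2 fold change -0.89, SE 0.23, edgeR adjusted p = 0.0476), and on average (log2 fold change -0.91, SE 0.13, edgeR adjusted p = 0.000235). At 32 x 24 °C its libraries read 56.9, 112 and 92.6 CPM in controls and 47.8, 48.9 and 70.1 CPM with LPS, and only control replicate 1 lay within the LPS range. Leaving out control replicate 1 or LPS replicate 2 of 24 x 24 °C ended the call there (adjusted p = 0.0555 and 0.0815), and at 24 x 32 °C any library left out ended it (up to 0.134), while the average effect was called in all 18 such fits. COL14A1 (ENSDARG00000005762), the other type XIV gene, did not share this pattern in its values, with log2 fold changes of 0.14, -0.24 and -0.65. The number of members called at 24 x 24 °C depended on the fit. It was 7 with DESeq2 and 7 with only the 6 libraries of the comparison, where col1a1a, col1a2, COL2A1 (ENSDARG00000011407), col10a1a and col17a1a joined col14a1b among the genes called lower in both fits. The seventh was col5a3b, called lower, with DESeq2 and COL8A1, called higher, in the fit of 6 libraries. The share of all genes called in these 2 fits is not given, so the counts are not read as a gain particular to collagens.

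**Figure D3:**
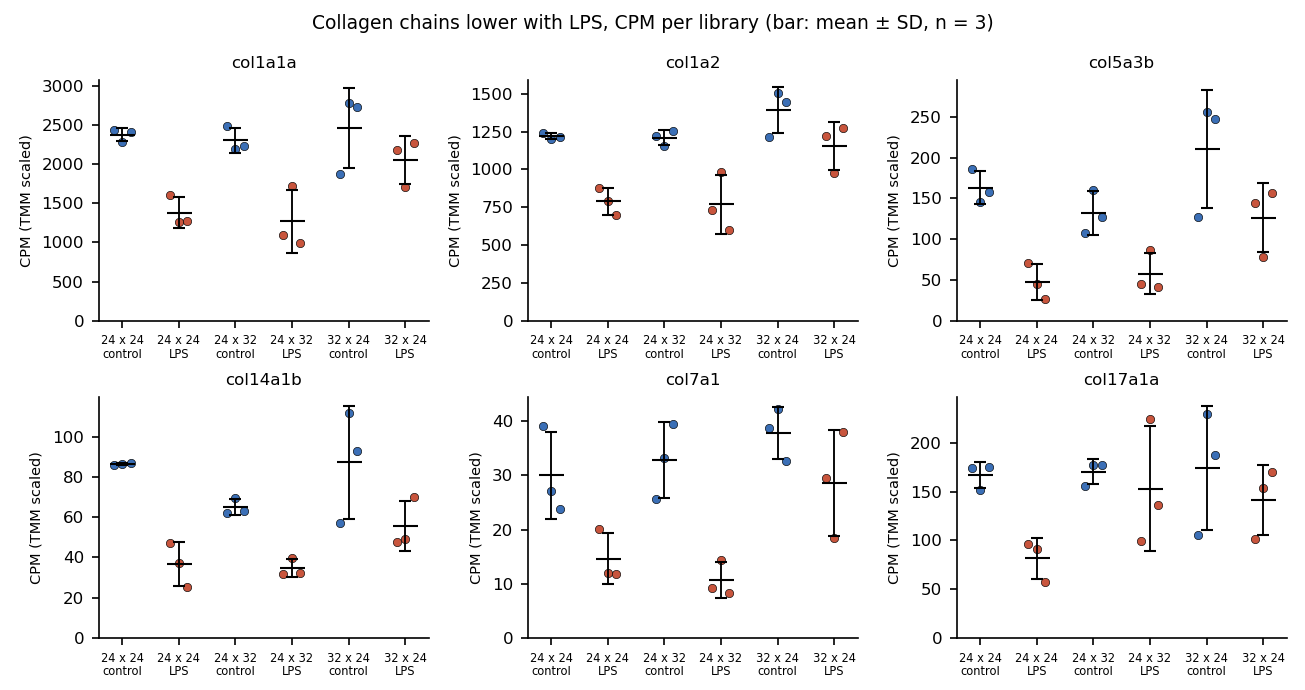
CPM (vertical axes, from 0) of 6 collagen chain genes in each of 18 libraries, with control libraries in blue, LPS libraries in red and bars at the mean ± SD of 3. For col14a1b the 24 x 24 °C controls lie at 85.8 to 86.9 CPM and the LPS libraries at 25.5 to 47.1 CPM, and for col17a1a the 24 x 32 °C LPS libraries spread from 99.2 to 224 CPM.

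In col19a1 (ENSDARG00000076163), a FACIT gene known in the mouse from oesophageal muscle and from the formation of synapses, the values with LPS lay on opposite sides of the controls at 24 x 24 and 24 x 32 °C. At 24 x 32 °C it had 36.7, 29 and 40.1 CPM in the controls and 16.2, 16.3 and 18.4 CPM with LPS, and it fell (log2 fold change -1.04, SE 0.20, edgeR adjusted p = 0.00847), which held whichever library was left out. At 24 x 24 °C it had 14, 14.7 and 14.8 CPM in the controls and 16, 16.7 and 19.9 CPM with LPS, every LPS library above every control, a log2 fold change of 0.24 that did not pass the test (edgeR adjusted p = 0.95). At 32 x 24 °C the values were 13.4, 15.8 and 18.4 CPM and 23.5, 18.4 and 13.5 CPM. With LPS, then, all 9 libraries lay between 13.5 and 23.5 CPM, and only the 24 x 32 °C controls lay above that range. The other copy named col19a1 had 51 counts over all libraries and was not tested.

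Type IX chains, the FACIT of cartilage, were not called with LPS. Of these, col9a1b (ENSDARG00000031483) was higher in every LPS library at 24 x 24 °C, with 442, 450.4 and 426 CPM in the controls and 497, 643 and 593 CPM with LPS (log2 fold change 0.39, edgeR adjusted p = 0.561). Its duplicate col9a1a (ENSDARG00000073699) was lower in every LPS library there, with 114, 144 and 129 and 106, 98.2 and 72.4 CPM (log2 fold change -0.47, edgeR adjusted p = 0.403). At 24 x 32 °C col9a3 had an adjusted p of 0.0348 with a log2 fold change of -0.52, under the 1.5-fold limit. Types XII and XVI were not called either, and the log2 fold changes of both COL12A1 genes at 24 x 32 °C were -0.06 and 0.03.

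Chains that fasten the epidermis to the tissue below were lower with LPS in part of the groups. Type VII forms the anchoring fibrils under the epidermal basement membrane, and its gene col7a1 (ENSDARG00000021720) had 25.6, 33.2 and 39.6 CPM in the 24 x 32 °C controls and 9.23, 14.4 and 8.32 CPM with LPS. The groups did not overlap, and col7a1 had the largest fall of the 9 called there (log2 fold change -1.58, SE 0.31, edgeR adjusted p = 0.0125). At 24 x 24 °C it had 39.2, 27.1 and 23.8 CPM in the controls and 20.1, 12.1 and 11.7 CPM with LPS (log2 fold change -0.97, edgeR adjusted p = 0.138), and at 32 x 24 °C 38.7, 42.2 and 32.7 and 29.5, 18.4 and 38 CPM. The average effect passed the test (log2 fold change -0.99, SE 0.16, edgeR adjusted p = 0.00114) whichever library was left out, while the call at 24 x 32 °C was lost without control replicate 3 (adjusted p = 0.0563). Its relative col7a1l (ENSDARG00000069692) stayed between 2.4 and 9.4 CPM in all libraries. Type XVII is a transmembrane collagen of the hemidesmosomes of basal keratinocytes. Its gene col17a1a (ENSDARG00000069415) had 174, 151 and 175 CPM in the 24 x 24 °C controls and 96.5, 90.9 and 57.1 CPM with LPS, without overlap (log2 fold change -1.01, edgeR adjusted p = 0.251). At 24 x 32 °C it had 156, 178 and 177 CPM and 99.2, 224 and 136 CPM, and LPS replicate 2 was above all controls. The duplicate col17a1b and both type XXIII genes, col23a1a and col23a1b, were not called in any comparison.

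Keratins of the epidermis and actinodins of the fin fold were also lower in LPS larvae. The epidermal list (krt4, krt5, krt91 and TP63, the keratins among them abundant in larval skin) had a summed level of 9002 to 11650 CPM in the 24 x 24 °C controls and 3405 to 8596 CPM with LPS. At 24 x 32 °C the sums were 14014 to 20243 CPM and 6884 to 10162 CPM, and at 32 x 24 °C 10687 to 12861 CPM and 5815 to 9368 CPM. On average over the combinations, 3 of its 4 genes fell, krt5 by most (log2 fold change -1.11, SE 0.19, edgeR adjusted p = 0.00488). The sums are those of the keratins, since the fourth gene, the keratinocyte transcription factor TP63, was at 24.3 to 38.6 CPM in the 24 x 24 and 24 x 32 °C controls. It was not called and had positive values with LPS, with log2 fold changes of 0.31, 0.51 and 0.18 and 0.33 on average (edgeR adjusted p = 0.257). All 3 actinodins measured, and1, and2 and and3, fell on average, with log2 fold changes of -1.06, -0.73 and -1.50 (edgeR adjusted p = 0.0209, 0.00102 and 0.00322). On average 0.814% of all genes were called lower. Within a combination, the genes of these 2 lists that were called were krt5, krt91 and and2, each lower at 24 x 32 °C (0.592% of all genes). No marker of either list was at 0 in any library. Tendon and fibroblast markers had none of 5 genes called in any LPS comparison, with 0, 1, 2 and 3 of them at an unadjusted p under 0.05 at 32 x 24, 24 x 24 and 24 x 32 °C and on average. Those within a combination were lower with LPS. On average LUM and TNMD were lower (log2 fold changes -0.34 and -0.25) and SCX was higher (0.50). In whole larvae, fewer cells of a type and less RNA per cell cannot be told apart, and the part of the epidermis in the collagen values was not tested.

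The remaining classes showed few LPS effects. Type X, encoded by col10a1a (ENSDARG00000054753), is known from hypertrophic cartilage and, in zebrafish, from bone-forming cells as well. It had 39.4, 60.6 and 53 CPM in the 24 x 24 °C controls and 19.6, 15.8 and 9.69 CPM with LPS, without overlap (log2 fold change -1.68, edgeR adjusted p = 0.093). At 32 x 24 °C the libraries gave 25.3, 75.7 and 86.2 CPM in the controls and 18.8, 45.2 and 34.2 CPM with LPS (log2 fold change -0.91, edgeR adjusted p = 0.898). With the replicate number as a block in a fit of those 6 libraries, col10a1a was the only member called there (log2 fold change -0.88, edgeR adjusted p = 0.0217), and in the block fit of all 18 libraries none was. Its average effect was -1.09 (SE 0.28) with an adjusted p of 0.0395 by edgeR, a call lost in 12 of the 18 fits without 1 library. A chain of type XXVIII, col28a2b (ENSDARG00000100781), was also called on average (log2 fold change -1.08, SE 0.29, edgeR adjusted p = 0.041) and lost its call in 12 of 18 such fits; it had 1 to 40 counts in a library. Its duplicate col28a2a had log2 fold changes of -0.53, 0.20 and -0.46. COL8A1 (ENSDARG00000003533), a short-chain collagen of blood vessels and cornea, had 1.91, 1.63 and 1.98 CPM in the 24 x 24 °C controls and 3.65, 5.27 and 4.59 CPM with LPS, all LPS libraries higher (edgeR adjusted p = 0.308). Chains of types IV, VI, XV and XVIII had no member called with LPS. For types IV and VI at 24 x 24 °C, 3 of 6 and 2 of 4 members lay below all controls (9.62% of all genes), among them col4a5 with 194, 180.0 and 169 CPM in the controls and 158, 124 and 105 CPM with LPS.

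Basement membrane chains of type IV, the scaffold under every epithelium and around vessels, had no call with LPS. The gene col4a6 (ENSDARG00000052061) had 81, 85.9 and 72.4 CPM in the 24 x 24 °C controls and 63.8, 53.4 and 48.4 CPM with LPS, and at 24 x 32 °C 53.8, 55.7 and 76.8 and 41, 65.3 and 42.9 CPM. Its log2 fold changes in the 3 temperature groups were -0.52, -0.30 and -0.17, and those of COL4A1, which pairs with COL4A2 in most basement membranes, were -0.03, 0.18 and -0.12. The genes col4a3 and COL4A4, whose human counterparts belong to the kidney filter, had 0.02, -0.27 and 0.53 and -0.38, -0.26 and -0.55. The multiplexin col15a1b, of muscle and vessel basement membranes, had 45.3, 40.6 and 42.8 CPM in the 24 x 24 °C controls and 48.7, 45.5 and 59.1 CPM with LPS, every LPS library higher (log2 fold change 0.24, edgeR adjusted p = 0.861). The remaining col16a1, col24a1 and col28a1a had 24 x 32 °C log2 fold changes of -0.44, 0.51 and 0.15 and were not called in any comparison. The value of col24a1 rested on LPS replicate 2, with 3.46, 10.2 and 2.19 CPM with LPS and 2.59, 6.1 and 2.86 CPM in the controls. Where none was called, at 32 x 24 °C, the largest values were those of col28a2b (-1.44, every LPS library below the controls, edgeR adjusted p = 0.592), COL8A2 (-0.98) and col10a1a.

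Between control larvae, the change to 32 °C went with lower collagen values, mainly of types VI, IX, X and XI. In 24 x 32 against 24 x 24 °C controls 9 members were down-regulated and 1 up-regulated, against a background of 6.21% of genes called, 3.2% lower and 3.01% higher, and the median log2 fold change of the members was -0.29. All 3 control libraries lay below those of 24 x 24 °C in 23 members (16.5% of all genes) and above in 5 (16.7%). Among the 9 were col10a1a, col6a4a, col6a1, col6a2, col11a2, col9a1a, col9a3, col18a1a and col9a1b. Of the 10 members called, 6 kept their call whichever library was left out, namely col10a1a, col6a1, col6a2, col11a2, col9a3 and col19a1 (ENSDARG00000076163).

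The largest change was that of col10a1a, which went from 39.4, 60.6 and 53 to 12.6, 6.1 and 10.5 CPM (log2 fold change -2.39, SE 0.45, edgeR adjusted p = 0.00624). Its 3 control libraries at 24 x 32 °C lay far below all controls at 24 x 24 °C. The 4 osteoblast markers were too low to test, with a summed level of 5.54 to 9.62 CPM in the 24 x 24 °C controls and 6.68 to 9.64 CPM in those of 24 x 32 °C. Type VI, whose beaded filaments surround muscle fibres and cells of connective tissue, was lower throughout. Its gene col6a1 (ENSDARG00000074908) had 114, 114 and 112 CPM at 24 x 24 °C and 46.3, 56.1 and 57.7 CPM at 24 x 32 °C (log2 fold change -1.09, SE 0.20, edgeR adjusted p = 0.00234). The partner chain col6a2 (ENSDARG00000061436) went from 101, 106 and 97.5 to 47.4, 55.3 and 61.5 CPM (log2 fold change -0.90, SE 0.16, edgeR adjusted p = 0.00152), and col6a4a (ENSDARG00000079752) from 17.6, 20.9 and 20.8 to 4.08, 11.4 and 6.68 CPM (log2 fold change -1.42, SE 0.32, edgeR adjusted p = 0.00977). COL6A3 (ENSDARG00000077139) had 78, 86.5 and 81.8 and 60.4, 55.3 and 57.2 CPM, with an adjusted p of 0.0308 and a log2 fold change of -0.51 that is under the limit. In all 4 genes the groups did not overlap, and the call of col6a4a was lost without control replicate 1 of 24 x 32 °C (adjusted p = 0.0612). Summed markers of skeletal muscle were higher in the same controls, at 40691 to 47155 CPM against 31556 to 34310 CPM, and 1 of their 3 genes rose, the creatine kinase gene ckma (log2 fold change 0.81, SE 0.14, edgeR adjusted p = 0.00133). The part of muscle in the type VI values was not tested.

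Chains of the cartilage fibril were lower as well. The type XI gene col11a2 had 282, 285 and 279.9 CPM in the 24 x 24 °C controls and 161, 182 and 171 CPM in those of 24 x 32 °C (log2 fold change -0.72, SE 0.12, edgeR adjusted p = 0.00122). Type IX gene col9a3 (ENSDARG00000037845) went from 417, 438 and 456 to 244, 283 and 303 CPM (log2 fold change -0.66, SE 0.12, edgeR adjusted p = 0.00284). Its partners col9a1a and col9a1b also passed the test, with log2 fold changes of -0.72 (SE 0.17) and -0.61 (SE 0.17) (edgeR adjusted p = 0.0156 and 0.0288), but col9a1a lost its call in 3 of 6 and col9a1b in 4 of 6 fits that left out a control library. COL9A2 (ENSDARG00000024492) and COL2A1 (ENSDARG00000069093) had adjusted p of 0.0152 and 0.0253 with log2 fold changes of -0.48 and -0.45, both under the 1.5-fold limit. The other type II gene, COL2A1 (ENSDARG00000011407), had 392, 335 and 398 and 361, 379 and 404 CPM, which overlapped. Of the 6 tested chondrocyte markers, 1 fell, the cartilage matrilin MATN1, from 222, 210.5 and 246 to 103, 86.9 and 86.8 CPM (log2 fold change -1.29, SE 0.15, edgeR adjusted p = 2.1e-05). The sum of the list, 364 to 410 CPM at 24 x 24 °C and 228 to 248 CPM at 24 x 32 °C, followed MATN1, its most abundant gene at 24 x 24 °C. The other tested genes were not called, with log2 fold changes of -0.53 for snorc, -0.34 for acana, -0.05 for UCMA and -0.02 and 0.16 for both SOX9 genes. The part of fewer or less active chondrocytes in these values was not tested.

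By contrast, the type I genes col1a1a, col1a2 and COL1A1 had log2 fold changes of -0.05, -0.01 and 0.30 between these controls, none called, and their summed level was 5090 ± 139 CPM at 24 x 24 °C and 5357 ± 250 CPM at 24 x 32 °C (SD, n = 3). The members col7a1, col5a3b and col17a1a had 0.13, -0.31 and 0.03, with overlapping libraries. The multiplexin col18a1a (ENSDARG00000036558), a basement membrane collagen whose C-terminal fragment is endostatin, fell from 141, 144 and 135 to 89, 88.1 and 98.2 CPM (log2 fold change -0.61, SE 0.16, edgeR adjusted p = 0.0203), a call lost in 5 of 6 fits without 1 library. Its duplicate col18a1b had -0.23. Against the trend, col19a1 (ENSDARG00000076163) rose from 14, 14.7 and 14.8 to 36.7, 29 and 40.1 CPM (log2 fold change 1.27, SE 0.18, edgeR adjusted p = 0.000217).

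**Figure D4:**
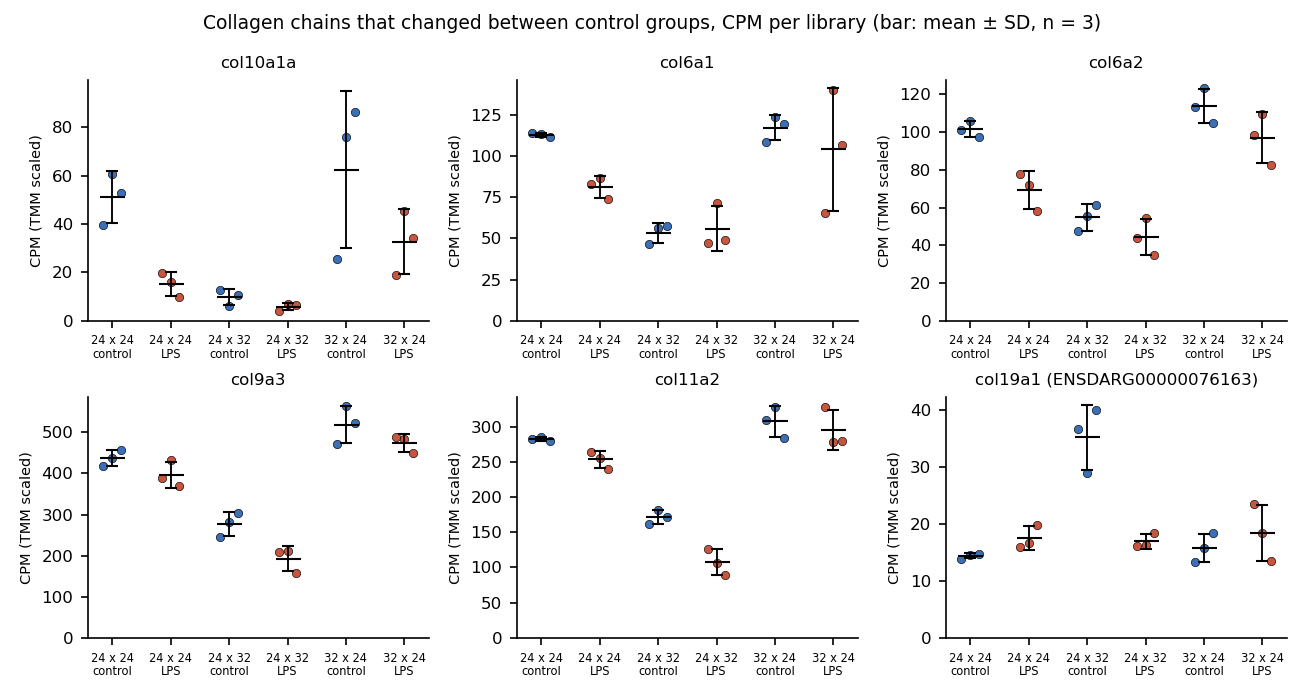
CPM (vertical axes, from 0) of 6 collagen chain genes in each of 18 libraries, with control libraries in blue, LPS libraries in red and bars at the mean ± SD of 3. In the 24 x 32 °C controls col10a1a lies at 6.1 to 12.6 CPM against 39.4 to 60.6 CPM in the 24 x 24 °C controls, and col19a1 (ENSDARG00000076163) at 29 to 40.1 CPM against 14 to 14.8 CPM.

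Incubation at 32 °C, followed by the change to 24 °C, went with higher values of many members in small steps. In 32 x 24 against 24 x 24 °C controls the median log2 fold change was 0.26, and 43 of 48 members were positive, against 49.1% negative values over all genes. In 17 members all 32 x 24 °C controls lay above those of 24 x 24 °C (10% of all genes), and in 1, COL12A1 (ENSDARG00000019601), all lay below (10.8%). None was called by edgeR, where the background was 0.49% of genes. An unadjusted edgeR p under 0.05 was found in 16 members, a count given without the share of all genes. By DESeq2 1 was called, the basement membrane chain col4a5 (ENSDARG00000052063). It had 194, 180.0 and 169 CPM at 24 x 24 °C and 221, 301 and 301 CPM at 32 x 24 °C, without overlap (edgeR 0.60 (SE 0.15) on the log2 scale, adjusted p = 0.0802). The largest differences in size were those of COL4A2 (1.03 (SE 0.46) on the log2 scale), COL8A2 (0.86 (SE 0.48)) and COL14A1 (0.80 (SE 0.23)), each with few counts or overlapping libraries, except that COL14A1 had 11.8, 11.1 and 13.8 CPM and 27.3, 16.2 and 20.0 CPM without overlap. Without control replicate 1 of 32 x 24 °C, col4a5 was called (edgeR adjusted p = 0.0391), and without both libraries numbered 1, col4a5 and col18a1a were (log2 fold changes 0.73 and 0.64, edgeR adjusted p = 0.02 and 0.0341).

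The LPS effects of the temperature groups were compared through their difference in the same fit. No member was called for 24 x 32 minus 24 x 24 °C, with 5 at an unadjusted p under 0.05 and 0.00636% of all genes called, or for 32 x 24 minus 24 x 24 °C, with 2 at an unadjusted p under 0.05 and no gene called. DESeq2 called none in either. The lowest p was that of col19a1 (ENSDARG00000076163), whose LPS effect was lower at 24 x 32 °C by a log2 difference of -1.29 (SE 0.27) (unadjusted p = 0.000108, edgeR adjusted p = 0.155). In the fit of only the 12 libraries involved, it was called (adjusted p = 0.0445). By size, COL8A1 (-1.04 (SE 0.62)) and col6a4a (0.996, SE 0.45) came next and, by p, col9a1b with -0.83 (SE 0.24) and col11a2 with -0.52 (SE 0.17) (edgeR adjusted p = 0.406 and 0.494). For 32 x 24 °C, all 12 tested fibrillar chains had a positive difference, that is, a weaker fall or no fall with LPS in value, from 0.01 to 0.999 on the log2 scale. Of all genes, 48.8% had a negative difference. None of the fibrillar chains passed the test (col1a1a 0.52 (SE 0.26), edgeR adjusted p = 1). The largest differences there were those of COL8A1 (-1.39 (SE 0.70)), col5a3b (0.999, SE 0.53) and COL14A1 (-0.78 (SE 0.34)). The LPS effects of the temperature groups thus had different calls, but in the fit of all 18 libraries no member's effect was shown to differ between them.

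Of the genes that make, bind or break down collagen, those up-regulated by LPS within a temperature group were the degrading enzyme genes MMP9 and mmp13a. The gelatinase gene MMP9 (ENSDARG00000042816) rose in all 3 groups, from 15.1, 38 and 44.8 to 117, 236 and 231 CPM at 24 x 24 °C (log2 fold change 2.55, SE 0.46, edgeR adjusted p = 0.0281), from 9.27, 3.81 and 6.68 to 72.1, 26.9 and 83.7 CPM at 24 x 32 °C (log2 fold change 3.19, SE 0.60, edgeR adjusted p = 0.0173) and from 4.27, 2.64 and 4.39 to 45.7, 101 and 79.3 CPM at 32 x 24 °C (log2 fold change 4.31, SE 0.63, edgeR adjusted p = 0.0359). The collagenase gene mmp13a (ENSDARG00000012395) rose from 3.44, 4 and 6.65 to 58.9, 90.6 and 71.9 CPM at 24 x 24 °C (log2 fold change 3.92, SE 0.49, edgeR adjusted p = 0.00239) and from 1.14, 2.64 and 2.4 to 23.1, 65 and 56.5 CPM at 32 x 24 °C (log2 fold change 4.59, SE 0.66, edgeR adjusted p = 0.0333). At 24 x 32 °C mmp13a had 4.08, 2.67 and 0.954 CPM in the controls and 14.4, 6.45 and 36.4 CPM with LPS. It was not called there (log2 fold change 2.81, SE 0.72, edgeR adjusted p = 0.0586). No LPS library of MMP9 or mmp13a overlapped its controls. A tissue inhibitor of these enzymes, TIMP2 (ENSDARG00000075261), rose on average (log2 fold change 2.73, SE 0.40, edgeR adjusted p = 0.00172). The other TIMP2 gene (ENSDARG00000061226), with the higher mean CPM, did not change with LPS (average log2 fold change 0.01, edgeR adjusted p = 0.979). In this list of 11 tested genes, 2, 1 and 2 were up-regulated at 24 x 24, 24 x 32 and 32 x 24 °C (0.235, 1.36 and 0.0191% of all genes) and none was down-regulated. Among the genes called in no group, MMP2 and fap had negative values in all 3, with log2 fold changes of -0.60, -0.12 and -0.22 for MMP2. TIMP2 (ENSDARG00000075261) and MMP14 (ENSDARG00000008388) had positive values in all 3, and the rest had both signs.

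Genes for collagen folding and processing were not called with LPS in any group (0 of 41 tested), and receptors were not called within a group (0 of 10), with the integrin gene itga2.3 up-regulated on average (log2 fold change 1.21, SE 0.28, edgeR adjusted p = 0.0154). Among 36 tested genes of collagen-binding matrix proteins, 2 fell at 24 x 32 °C, and none was called at 24 x 24 or 32 x 24 °C. SPARC (ENSDARG00000019353), a glycoprotein that binds fibrillar collagen, fell from 1223, 1010 and 1210 to 504, 579.8 and 507 CPM (log2 fold change -1.11, SE 0.12, edgeR adjusted p = 6.2e-05), and at 24 x 24 °C it had 1068, 1075 and 1056 CPM in the controls and 849, 787 and 756 CPM with LPS. The matrilin gene MATN4 fell at 24 x 32 °C from 176, 171 and 162 to 99.2, 118 and 99.9 CPM (log2 fold change -0.67, SE 0.13, edgeR adjusted p = 0.00816).

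Between 24 x 32 and 24 x 24 °C controls, the folding list held 3 up- and 5 down-regulated genes of 41, where 3.01% of all genes were called higher and 3.2% lower. The gene of the procollagen chaperone of the endoplasmic reticulum, SERPINH1 (ENSDARG00000019949), rose from 13, 12.6 and 14.2 to 304, 301 and 345 CPM (log2 fold change 4.57, SE 0.55, edgeR adjusted p = 0.000405), and its copy (ENSDARG00000075954) from 12.4, 19.1 and 14.7 to 40.4, 43.5 and 64.8 CPM (log2 fold change 1.67, SE 0.21, edgeR adjusted p = 4.6e-05). The study counts SERPINH1 (ENSDARG00000019949), as serpinh1b, among the heat shock protein transcripts higher in these controls. The prolyl hydroxylase subunit gene P4HA2 rose as well (log2 fold change 1.45, SE 0.23, edgeR adjusted p = 0.000727), whereas the other subunit, P4HB, also known as protein disulfide isomerase, fell (log2 fold change -0.61, SE 0.14, edgeR adjusted p = 0.00953), as did FKBP9, LOXL2, PLOD3 and pcolcea. Collagen-binding genes had 1 up- and 7 down-regulated members of 36 against the same background, with MATN1 and genes of the nidogens NID1 and NID2, linkers of basement membranes, among the latter. Of the genes named NID1, ENSDARG00000068710 went from 78.17, 87.05 and 87.95 to 43, 58.72 and 55.31 CPM. ENSDARG00000103129 went from 37.46, 43.97 and 36.04 to 25.95, 20.97 and 32.43 CPM. Of 10 tested receptor genes 1 fell, the integrin gene ITGB1 (ENSDARG00000022689; log2 fold change -1.35, SE 0.39, edgeR adjusted p = 0.0369). Of the degrading enzymes, MMP9, MMP2 and MMP14 (ENSDARG00000008388) fell, with log2 fold changes of -2.32, -0.80 and -0.68 (edgeR adjusted p = 0.032, 0.00907 and 0.0352). Between 32 x 24 and 24 x 24 °C controls, the peptidyl-prolyl isomerase gene FKBP9 rose (log2 fold change 1.105, SE 0.22, edgeR adjusted p = 0.0252) and no other gene of these 4 lists was called. MMP9 came close to a call there (log2 fold change -3.11, SE 0.64, edgeR adjusted p = 0.054). Its controls had 15.1, 38 and 44.8 CPM at 24 x 24 °C and 4.27, 2.64 and 4.39 CPM at 32 x 24 °C, without overlap. The study, with DESeq2, listed mmp9 as down-regulated between these controls.

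**Figure D5:**
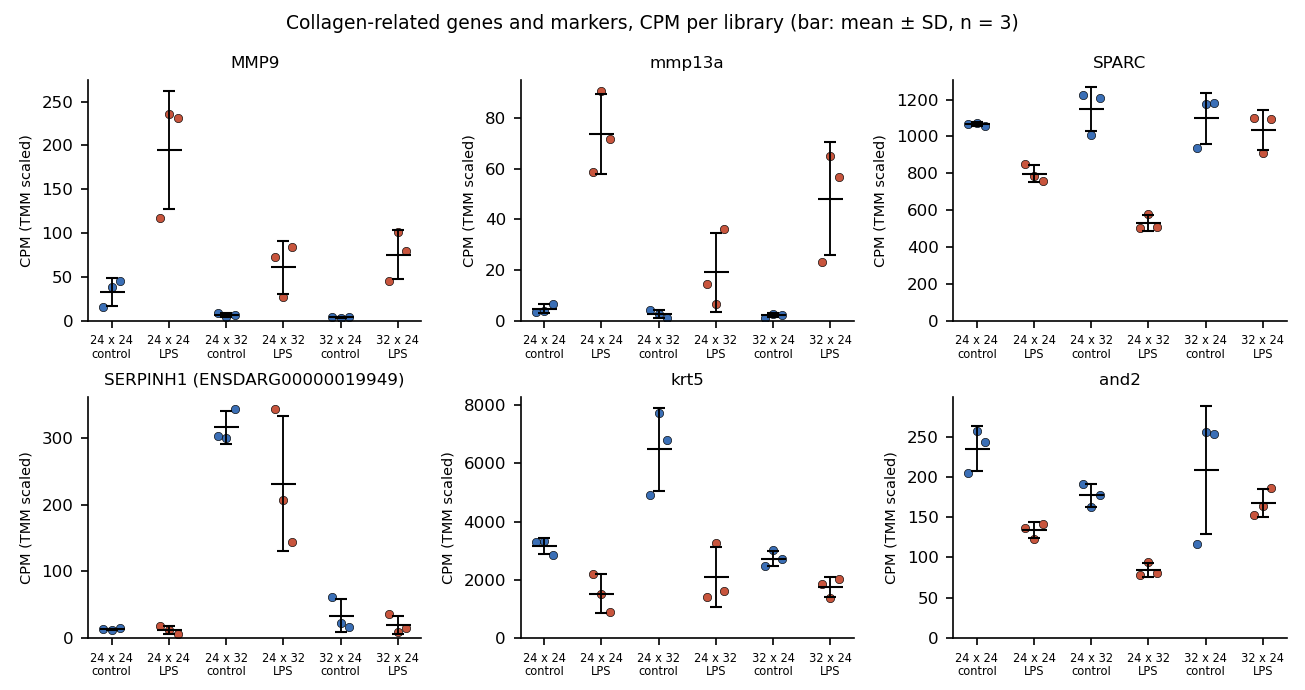
CPM (vertical axes, from 0) of 4 genes of collagen breakdown, binding and folding and of the markers krt5 and and2 in each of 18 libraries, with control libraries in blue, LPS libraries in red and bars at the mean ± SD of 3. MMP9 lies at 117 to 236 CPM with LPS and 15.1 to 44.8 CPM in the controls at 24 x 24 °C, and SERPINH1 (ENSDARG00000019949) at 301 to 345 CPM in the 24 x 32 °C controls and 12.6 to 14.2 CPM in those of 24 x 24 °C.

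The 6 members below the filter had 51 to 110 counts over all 18 libraries. Of these, col5a2b, a duplicate chain of type V, had 1.91, 2.07 and 2.8 CPM in the 24 x 24 °C controls and 0.741, 0 and 0 CPM in those of 24 x 32 °C. It was at 0 in 4 libraries. The others, col19a1 (ENSDARG00000096073), col7a1l (ENSDARG00000093135), col27a1b, col5a3a and col28a1b, held at most 23 counts in a library and allow no statement on a difference at this depth.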

How the data were processed

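RNA sequencing of whole zebrafish larvae gave 18 libraries (poly(A) TruSeq). Per the labels and the study's methods, the authors trimmed reads with cutadapt 1.12, aligned them to GRCz10 with TopHat2 2.1.0 and counted reads per Ensembl gene with HTSeq 0.6.1p1. The deposited values are raw counts per gene in 1 table. The strand setting of the counting and its treatment of reads with several matches are not given in the sources used here, so reads of near-identical copies and of overlapping antisense genes are uncertain. Of 31624 gene identifiers, 26154 were named by the gene table, and no reference sequence was used.

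Members and related gene lists were chosen with earlier results of these data known. Counts were tested with edgeR 4.0.16 in R 4.3.3 (robust quasi-likelihood, TMM, filterByExpr with a minimum count of 10 and total of 15, 6 group means, 18 libraries, common biological coefficient of variation 0.176), with Benjamini-Hochberg adjustment over 15722 genes. Library totals ran from 1868228 to 8261920 counts per library, which limits precision for genes with few counts. Genes were named by rule, as the up to 8 called members with the largest change per direction and comparison, the 3 with the highest mean CPM per class, the duplicates of called members, the 3 largest changes where none was called, and up to 4 called genes of each related list. Of members named outside it, col5a2b, col5a3a and the others below the filter, those with an adjusted p under 0.05 but a smaller fold, and those completing a class or ranked by p, were chosen after their values were seen.

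Alternatives were DESeq2 size factors, no filter on low counts, DESeq2 1.42.0, only the libraries compared, the replicate number as a block, counts thinned to the smallest library, no fold limit, and each library left out in turn. The block within 6 libraries, and both 32 x 24 °C libraries numbered 1 left out, were chosen after seeing the data. The test was checked on simulated counts. Same-numbered control and LPS libraries deviated together (correlation over 0.1 in every pair) only at 32 x 24 °C, at 0.559, 0.28 and 0.195, although control replicate 3 correlated more with LPS replicate 2, at 0.386. By that rule the numbers were taken to pair the libraries there and not elsewhere. The labels do not give this pairing and the correlations do not single it out, so paired results at 32 x 24 °C rest on an assumption.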

Additional observations from a re-analysis of the deposited data

Results flagged for a closer look

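The gene col19a1 (ENSDARG00000076163), a fibril-associated collagen, was flagged because its LPS libraries lay on opposite sides of the controls at 24 x 24 and 24 x 32 °C. With LPS its level was 16, 16.7 and 19.9 CPM at 24 x 24 °C, above all controls (14, 14.7 and 14.8 CPM), and 16.2, 16.3 and 18.4 CPM at 24 x 32 °C, below all controls (36.7, 29 and 40.1 CPM). Its effect at 24 x 24 °C did not pass the test. Of all genes, 9.22% had every LPS library above every control at 24 x 24 °C, and 10.2% had every one below at 24 x 32 °C. For col19a1 (ENSDARG00000076163), the difference of the log2 effects was -1.29 (SE 0.27). Its adjusted p by edgeR was 0.155, so the difference did not pass the test over all genes, and over 18 alternatives the adjusted p ran from 0.0445 to 0.497 and the difference from -1.52 to -1.21.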

How the results depend on the processing

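Of 133 counts of called members under the alternatives, 115 stayed within 1.5 times the reported count or stayed at 0. Many of these belong to comparisons with no call in the main fit, where a count that stays at 0 says little about stability. At 24 x 24 °C the 1 call became 4 without the filter on low counts, 7 with DESeq2, 7 with only the libraries compared, 2 with the replicate block and 8 with the block within those 6 libraries. Leaving out 1 library gave 0 to 2 there, 3 to 10 at 24 x 32 °C (3 without control replicate 3 or LPS replicate 3, 4 without control replicate 2), 3 to 7 for the average effect (3 without LPS replicate 3 of 24 x 32 °C), 0 to 1 for the 32 x 24 against 24 x 24 °C controls and 7 to 10 for the 24 x 32 against 24 x 24 °C controls. The 10 calls at 24 x 32 °C and the 7 for the average effect were those without LPS replicate 2 of 24 x 32 °C. The average effect had 14 calls with no fold limit. At 32 x 24 °C the block within 6 libraries gave 1 call. Between 32 x 24 and 24 x 24 °C controls DESeq2 gave 1, and leaving out both libraries numbered 1 gave 2. For the difference of LPS effects between 24 x 32 and 24 x 24 °C, only the libraries compared gave 1. The replicate block on 18 libraries ended the call of col14a1b at 24 x 32 °C, added COL2A1 (ENSDARG00000011407) at 24 x 24 °C and changed no other member's call. The causes were not tested, and the share of all genes called in each of these fits is not given. With TMM-scaled totals the mean collagen share was 1.16% in the 24 x 24 °C controls, 1.03% in the 24 x 32 °C controls and 1.18% in the 32 x 24 °C LPS libraries. For the called members, and for the 3 largest changes in each comparison with no call, the alternatives gave 506 values on the same side of the threshold and 73 that lost the call, while 2 of the uncalled gained it, and none reversed direction. At 1868228 to 8261920 counts per library, the 6 members with at most 110 counts in all could not be tested.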

Other observations

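Outside the collagen family, single genes of the epidermal and notochord lists also differed in the comparisons below. In 24 x 32 against 24 x 24 °C controls the keratin gene krt91 rose (log2 fold change 1.21, SE 0.29, edgeR adjusted p = 0.0188), whereas the epidermal collagen genes col7a1 and col17a1a were not called. The rest of the epidermal list, krt5, krt4 and TP63, was not called there (log2 fold changes 1.04, 0.39 and -0.11), and 3.01% of all genes were called higher. In the notochord list, epyc, a small proteoglycan gene, fell with LPS at 24 x 32 °C (log2 fold change -0.74, SE 0.15, edgeR adjusted p = 0.0104), as the only 1 of 4 tested genes. The SHH genes ENSDARG00000068567 and ENSDARG00000038867 and tbxta had -0.20, 0.30 and 0.30 there, and 0.592% of all genes were called lower. The neutrophil lysozyme gene lyz, the only gene of its list that matched, fell with LPS on average (log2 fold change -1.16, SE 0.21, edgeR adjusted p = 0.00428) and between 24 x 32 and 24 x 24 °C controls (log2 fold change -1.46, SE 0.34, edgeR adjusted p = 0.016). Of the macrophage list 1 gene was tested, and it was not called in any comparison.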
